A study of Mus musculus with 9 samples.

Results

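Mouse bone marrow cells transformed by MN1-TEL del DBD, the MN1-TEL fusion with its DNA-binding domain deleted, were compared here with cells transformed by MN1 alone. The comparison used the 3 arrays labelled MN1-TEL del DBD and the 3 labelled MN1, 6 of the 9 arrays in the series. The other 3 arrays are of cells with the full MN1-TEL fusion, and their levels are given where they place a result. The starting material of every group was C57/Bl6 bone marrow enriched for c-kit, which was transduced with retrovirus. The cells then grew in liquid culture for 10 days with the cytokines SCF (20 ng/µl, as the labels state it), IL-6 and IL-3 (10 ng/µl). Every group carried an MN1-containing construct, and cells without one were not analysed here, so each difference is relative to MN1. The labels write DBD, which commonly stands for DNA-binding domain, and do not state which residues were removed. The construct is called del DBD hereafter. The series title concerns MN1 leukaemia and its independence of Bmi1, a Polycomb gene. Whether the 3 replicates of a group came from separate cultures is not stated in the labels. The p-values therefore describe only the scatter among these arrays, part or all of which may be technical, and precision is limited by having 3 arrays per group.

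MN1 is a transcriptional cofactor that acts with nuclear receptors such as the retinoid receptors, and its overexpression transforms mouse bone marrow progenitors. TEL, encoded by Etv6, is an ETS-family transcription factor with an ETS domain that binds DNA and a pointed domain through which it associates with itself and with repressors. The human translocation that joins MN1 to TEL occurs in myeloid leukaemia. In bone marrow, granulocyte precursors make primary granule proteins at the promyelocyte stage and secondary and tertiary granule proteins later, under factors that include C/EBP epsilon. Monocytes, mast cells and megakaryocytes arise from related progenitors and have gene programmes of their own, so markers of these lineages show which programmes are present in a culture.

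Each Illumina mouse BeadChip reported the brightness of a probe per transcript together with a detection p-value against the array's negative controls. Levels below are log2 intensities after background correction and quantile normalization, so a difference of 1 is a 2-fold change. A level under about 6 was usually not detected. Mean raw intensity per array was 857 to 897 in del DBD cells, 927 to 973 in MN1-TEL cells and 632 to 689 in MN1 cells, and 14249 to 15273 probes per array had a detection p-value under 0.01. Over the 9136 genes tested, arrays of del DBD cells correlated with each other at 0.992 to 0.994 and arrays of MN1 cells at 0.993 to 0.994. A del DBD array correlated with an MN1 array at 0.921 to 0.933 and with an MN1-TEL array at 0.942 to 0.954. Correlations within MN1-TEL were wider, at 0.975 to 0.99. On the leading principal component the del DBD arrays lay at 9.85 to 12.8, the MN1-TEL arrays at 44.5 to 48.3 and the MN1 arrays at -58.7 to -56.5. On the next component del DBD lay apart from both, at -34.9 to -28.5, with MN1-TEL at 18.3 to 28.1 and MN1 at 9.27 to 11.7.

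The genes that mark the constructs gave no check of the labels. The probe for Mn1 was detected on 0 of the 9 arrays, and the labels do not say whether it lies within the transduced sequence. Etv6 had levels of 8.87, 8.71 and 8.48 in del DBD cells, against 8.62, 8.64 and 8.57 in MN1 cells. These ranges overlap, and the difference of 0.08 ± 0.12 (SE) did not pass the test (limma, Benjamini-Hochberg adjusted p = 0.666). It passed in 1 other setting, at 0.58 with arrays scaled to the median of all probes (adjusted p = 0.0111).

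Expression in del DBD cells differed widely from that in MN1 cells. The largest rises were in the neutrophil genes Ltf and Cd177, and the largest falls in the transcription factor gene Tfap2c and the cadherin gene Cdh3. Of 9136 genes tested, 3386 (37.1%) passed an adjusted p of 0.05 in limma's moderated test, 1645 (18.0%) higher and 1741 (19.1%) lower in del DBD cells. At least 2-fold changes were found in 1130 genes (12.4%), 676 higher (7.40%) and 454 lower (4.97%). At least 4-fold changes were found in 242 genes that were higher and 150 that were lower. Levels in the 2 groups did not overlap for 5351 genes (58.6%). The median difference over all genes was -0.04.

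The balance of rises and falls depends on how the arrays were scaled. With quantile normalization 48.6% of the called genes were higher. With arrays scaled to the same median over all probes, which lies at background, 3786 were higher and 563 lower (87.1% higher), and the median of all genes was 0.34. With arrays scaled to the median of the detected probes, a choice made after seeing the data, 1295 were higher and 2599 lower (33.3% higher), and the median was -0.16. Small differences of either sign are therefore read against these medians. For many gene lists the counts are also given with arrays scaled to the median of all probes (all-probe scaling) or of the detected probes (detected-probe scaling). The 12 largest rises and 12 largest falls kept their direction and their call under every setting in which the gene was measured.

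**Figure D1:**
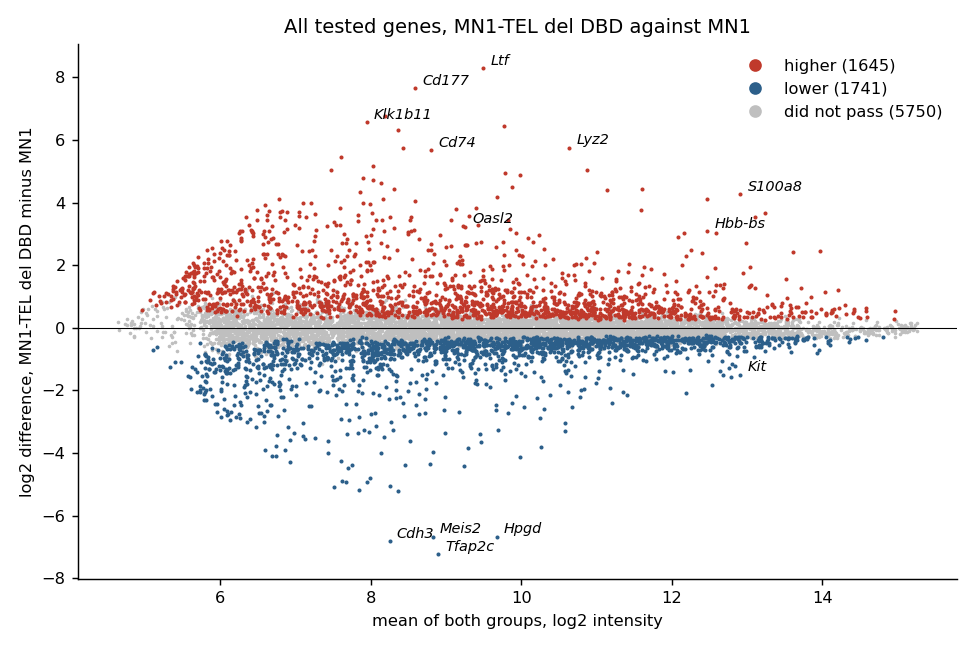
Each point is a gene, with the mean log2 intensity of both groups on the x axis and the log2 difference of MN1-TEL del DBD minus MN1 on the y axis. Red points are the 1645 genes called higher, blue points the 1741 called lower and grey points the rest; Ltf and Cd177 lie furthest up and Tfap2c and Cdh3 furthest down. Under other scalings the share of called genes that are higher is 87.1% or 33.3% in place of 48.6%.

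Ltf had the largest rise. It encodes lactoferrin, an iron-binding protein of secondary granules. Its levels were 13.67, 13.51 and 13.73 in del DBD cells, against 4.90, 5.17 and 5.97 in MN1 cells, where it was detected on no array. The groups lie far apart, and Ltf was at least 176-fold higher in del DBD cells (adjusted p = 3.65e-08). A bound of this kind sets the bright group's mean against the lowest signal detected on each array of the dim group, or against the probe's own signal where that is higher.

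Cd177 encodes a neutrophil surface glycoprotein. It had 12.09, 12.60 and 12.53 in del DBD cells, against 4.79, 4.87 and 4.61 in MN1 cells, and was at least 75.3-fold higher (adjusted p = 2.26e-08). Itgb2l, an integrin beta chain related to the common leukocyte integrin chain, had 11.37, 11.57 and 11.78 in del DBD cells, against 4.91, 4.80 and 4.72 in MN1 cells, which is at least 42.2-fold (adjusted p = 7.67e-09). Neither gene was detected on any MN1 array, and in both the 3 del DBD arrays agree closely. Ngp, neutrophilic granule protein, had 11.13, 11.63 and 11.81 in del DBD cells, against 4.95, 4.99 and 5.69 in MN1 cells, at least 40.7-fold higher (adjusted p = 2.57e-07). Mgst1, a microsomal glutathione transferase, had 11.09, 11.45 and 11.35 in del DBD cells, against 5.62, 5.38 and 5.64 in MN1 cells, at least 34.9-fold higher (adjusted p = 4.21e-08). Both were undetected on all 3 MN1 arrays.

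The other 3 of the 8 largest rises were Klk1b11, Chil1 and Lyz2. Klk1b11 belongs to a family of near-identical kallikrein genes that a probe may not tell apart. It had 11.38, 11.13 and 11.17 in del DBD cells, against 4.65, 4.62 and 4.71 in MN1 cells, at least 33.2-fold higher (adjusted p = 5.1e-09). Chil1 encodes a chitinase-like glycoprotein. It had 12.54, 13.18 and 13.25 in del DBD cells, against 6.14, 6.90 and 6.60 in MN1 cells, where 2 of 3 arrays detected it, an 87.4-fold difference (adjusted p = 9.1e-08). Lyz2, the lysozyme of granulocytes and macrophages, was detected in both groups. Its levels were 13.16, 13.84 and 13.54 in del DBD cells, against 7.87, 7.53 and 7.90 in MN1 cells, a 53.7-fold difference (adjusted p = 6.9e-08).

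The next 4 rises were in Cd74, Ifitm6, Lrg1 and Chil4. Cd74, the invariant chain of MHC class II, was 50.8-fold higher, with 1 of 3 MN1 arrays detecting it (adjusted p = 4.55e-07). Ifitm6, an interferon-induced transmembrane family member, was at least 17.9-fold higher (adjusted p = 2.96e-08), and Lrg1, a leucine-rich glycoprotein of neutrophil granules, at least 21.7-fold (adjusted p = 1.17e-07). Chil4, a chitinase-like protein with close relatives, was 33.2-fold higher (adjusted p = 2.99e-07). For several of these genes a second probe gave the same direction with a smaller difference. It was 3.18 for Ltf, 4.61 for Cd177, 2.39 for Itgb2l and 3.24 for Klk1b11.

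**Figure D2:**
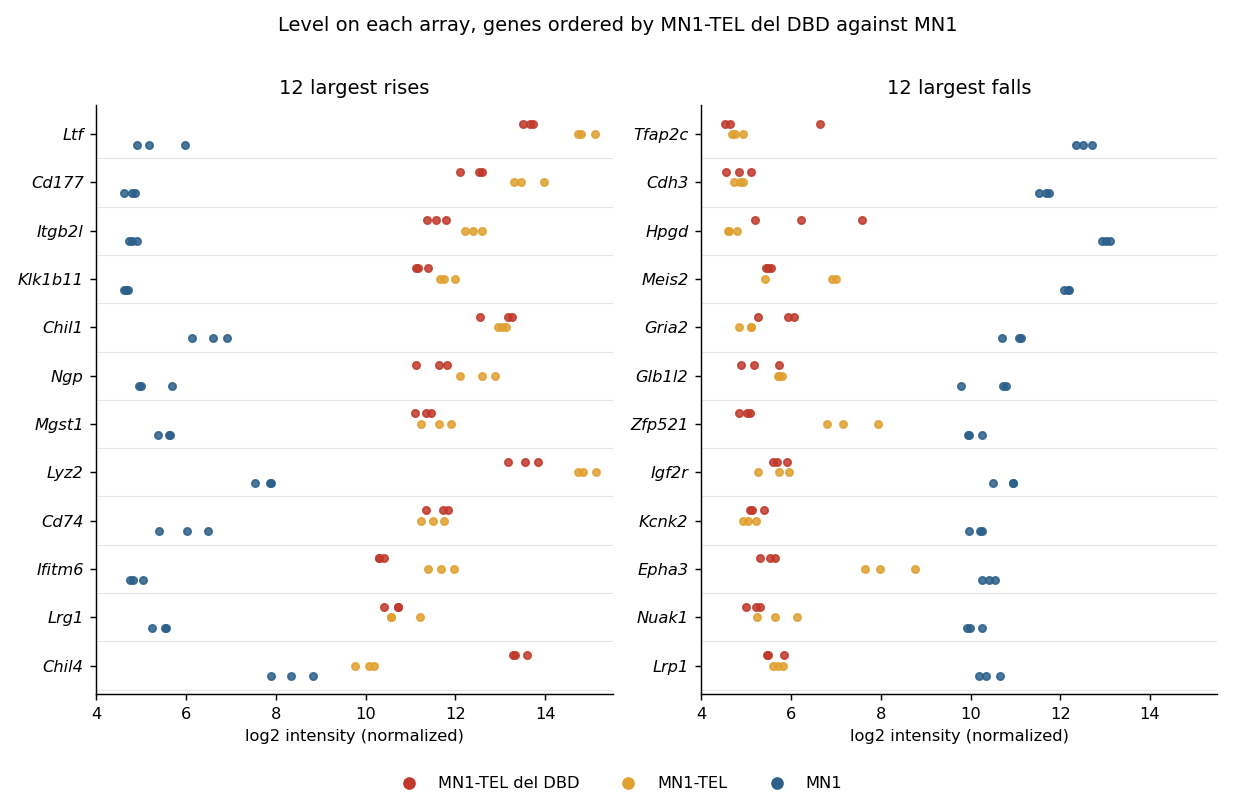
Each dot is 1 array, with its log2 intensity on the x axis; rows are the 12 genes with the largest rise (left) and the 12 with the largest fall (right) in MN1-TEL del DBD against MN1. In every row the red MN1-TEL del DBD dots and the blue MN1 dots are separate; the mean of the orange MN1-TEL dots is nearer to MN1-TEL del DBD than to MN1 in every row except Chil4 and Epha3.

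Promoter sequence is shown for members of 2 gene groups with many rises, neutrophil genes and interferon-stimulated genes. Sequences are the 250 bases before the gene start in RefSeq (GRCm38.p6), and the genes shown were chosen after their levels and matches were known. C/EBP factors bind sites that can be written TTGCNNAA, searched on both strands. These letters were found for 11 of the 29 measured neutrophil genes with a promoter entry (37.9%) and for 10.8% of 27025 genes. A match is a description of the sequence and not a bound site. The promoters of Ltf (chr9:111019042-111019291, plus strand) and Ngp (chr9:110419558-110419807, plus strand) follow, 5′ to 3′, with the matches in capitals.
Ltf: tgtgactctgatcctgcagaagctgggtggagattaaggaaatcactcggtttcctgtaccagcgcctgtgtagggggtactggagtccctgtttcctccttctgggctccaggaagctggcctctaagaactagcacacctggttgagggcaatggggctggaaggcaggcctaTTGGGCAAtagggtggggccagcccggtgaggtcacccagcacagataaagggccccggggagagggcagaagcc
Ngp: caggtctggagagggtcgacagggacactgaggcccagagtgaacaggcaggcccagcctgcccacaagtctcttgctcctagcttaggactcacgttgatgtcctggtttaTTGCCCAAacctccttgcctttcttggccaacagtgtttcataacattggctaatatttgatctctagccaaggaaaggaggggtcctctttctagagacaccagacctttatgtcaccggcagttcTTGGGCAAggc
Ltf holds 1 match and Ngp 2. The promoter of Cd177, which rose with them, holds 0 matches.

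Of 37 listed neutrophil granule and maturation genes, 33 were measured. In del DBD cells 27 were higher and 0 lower (81.8% called, against 37.1% of all genes). The median difference was 2.47 (2.38 with genes undetected in MN1 cells set at their bound). The mean level of the list was 10.68 to 10.90 on the del DBD arrays and 7.58 to 7.71 on the MN1 arrays, and in MN1 cells 16 of the 33 genes were detected on all arrays. In bulk cultures of this kind, more cells of a type and more RNA per cell cannot be told apart. S100a8, a subunit of calprotectin, had a level of 15.04 ± 0.04 in del DBD cells and 10.78 ± 0.16 in MN1 cells (SD, n = 3 each), a difference of 4.26 ± 0.11 (SE; adjusted p = 2.26e-08). The 6 genes that did not pass ranged from Mmp9, a gelatinase of tertiary granules, at -0.09, to Padi4, a histone-modifying enzyme of neutrophils that was undetected in MN1 cells, at 1.59 (adjusted p = 0.0507). These 2 were picked after their values were seen. Among secondary granule genes other than Ltf and Ngp, Lcn2 (lipocalin 2) was 3.86-fold higher (adjusted p = 1.09e-05) and Camp (cathelicidin) 4.85-fold higher with 1 of 3 MN1 arrays detecting it (adjusted p = 0.00177). Mmp8, neutrophil collagenase, was undetected in both groups. These 3 were also picked after their values were seen. Cebpe, the factor needed for secondary granules, had a level of 11.16 ± 0.11 in del DBD cells and 8.85 ± 1.12 in MN1 cells (SD, n = 3 each) and rose by 2.31 (adjusted p = 0.00399).

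Genes of the earlier primary granules had smaller differences. Of 17 listed, 15 were measured, and 7 were higher and 2 lower (60% called, against 37.1% of all genes). The counts were 7 and 0 under all-probe and 5 and 4 under detected-probe scaling. The median of 0.05 became -0.25 under scaling to the detected probes. Elane, neutrophil elastase, had a level of 12.45 ± 0.36 in del DBD cells and 10.42 ± 0.11 in MN1 cells (SD, n = 3 each), and was 4.08-fold higher (adjusted p = 0.000104). Ms4a3, a membrane protein of granulocyte and monocyte progenitors, was 3.26-fold higher (adjusted p = 7.69e-05). Plac8 rose by 0.51 (adjusted p = 0.00182), a call that ended under scaling to the detected probes (difference 0.10). The 2 that fell were Hgf (-0.83, adjusted p = 0.0426) and Srgn (-0.46, adjusted p = 0.0358). Among the 6 that did not pass were Mpo (-0.32, adjusted p = 0.199) and Ctsg (0.05, adjusted p = 0.744). All 4 measured subunits or partners of the phagocyte NADPH oxidase rose (100% called, against 37.1% of all genes), with a median of 0.94. Ncf4 rose by 1.17 (adjusted p = 2.17e-05), Ncf1 by 0.97 (adjusted p = 0.000511) and Rac2, a GTPase of the complex, by 0.92 (adjusted p = 0.00138).

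Monocyte and macrophage genes also rose in most cases. Of 35 listed, 29 were measured, with 26 higher and 2 lower (96.6% called, against 37.1% of all genes). The median difference was 2.11 (1.73 at the bounds). The list's mean level was 10.00 to 10.07 on the del DBD arrays and 7.97 to 8.09 on the MN1 arrays. Ly6c1, a surface protein of monocytes and of some other cells, had 12.26 ± 0.24 in del DBD cells and 7.31 ± 0.16 in MN1 cells (SD, n = 3 each), a 30.9-fold difference (adjusted p = 5.58e-08). Clec4n, the lectin dectin-2, was 16.6-fold higher (adjusted p = 4.21e-08). The 2 genes that fell, Ccr2 and F13a1, are likewise monocyte genes, a chemokine receptor and a coagulation factor subunit. Ccr2 had a level of 6.61 ± 0.36 in del DBD cells and 8.55 ± 0.11 in MN1 cells (SD, n = 3 each; difference -1.94, adjusted p = 6.19e-05), and F13a1 differed by -1.09 (adjusted p = 0.0235). Itgam, the integrin chain CD11b shared by granulocytes and monocytes, was detected on all del DBD arrays and on no MN1 array and was at least 2.85-fold higher (adjusted p = 3.98e-07).

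Genes of MHC class II and dendritic cells rose in 7 of 8 measured cases, of 18 listed, with 0 lower. Of the 8, 87.5% were called, against 37.1% of all genes, and the median was 1.85 (1.07 at the bounds). H2-Eb1, a class II beta chain, was undetected in MN1 cells and at least 4.41-fold higher (adjusted p = 8.95e-05). Its 3 del DBD arrays were spread, at 9.04, 7.52 and 8.38. Irf4, a transcription factor of lymphoid, dendritic and macrophage cells, was at least 2.33-fold higher (adjusted p = 1.74e-06). The dendritic markers Itgax, Xcr1, Clec9a and Siglech did not pass the detection filter. Of 29 measured lysosomal genes 10 were higher and 1 lower (37.9% called, against 37.1% of all genes), with a median of 0.32. The counts were 20 and 1 with all-probe scaling and 8 and 2 with detected-probe scaling. Psap, which encodes the saposin precursor, rose by 1.56 (adjusted p = 4.53e-06). A pair of endolysosomal proteases were undetected in MN1 cells. Lgmn (legumain) was at least 5.5-fold higher (adjusted p = 6.55e-06) and Ctsh (cathepsin H) at least 2.79-fold (adjusted p = 1.49e-05).

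Most interferon-stimulated genes were higher in del DBD cells. Of 44 listed, 31 were measured, with 27 higher and 0 lower (87.1% called, against 37.1% of all genes). The median was 1.21. The list's mean level was 10.16 to 10.20 on the del DBD arrays, 9.92 to 10.02 on the MN1-TEL arrays and 8.85 to 8.95 on the MN1 arrays. Oas2, a sensor of double-stranded RNA, had levels of 8.25, 8.53 and 8.52 in del DBD cells, against 4.70, 4.86 and 4.90 in MN1 cells, where it was not detected, and was at least 4.79-fold higher (adjusted p = 6.9e-08). Oasl2, a related protein, was 9.3-fold higher (adjusted p = 9.12e-08), and Gbp2, an interferon-induced GTPase, 3.67-fold (adjusted p = 3.63e-06). The 4 that did not pass were Zbp1, Irgm1, Isg20 and Ifi47, with differences of -0.25, -0.23, 0.40 and 0.62.

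The core of the interferon-stimulated response element, taken as GAAA, any 2 bases and GAAA and searched on both strands with overlaps allowed, was found in the 250 bases before the start of 12 of 27 interferon genes with a promoter entry (44.4%), and of 3.46% of 27025 genes. Isg15 (chr4:156200819-156201068, minus strand), Ifit3 (chr19:34583279-34583528, plus strand) and Gbp2 (chr3:142620413-142620662, plus strand) are shown 5′ to 3′ with the matches in capitals, as cases with 3, 2 and 1.
Isg15: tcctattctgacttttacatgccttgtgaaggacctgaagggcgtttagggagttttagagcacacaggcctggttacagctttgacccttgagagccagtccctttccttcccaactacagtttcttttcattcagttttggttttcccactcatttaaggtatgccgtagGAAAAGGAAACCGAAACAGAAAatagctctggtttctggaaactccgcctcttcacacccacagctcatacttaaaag
Ifit3: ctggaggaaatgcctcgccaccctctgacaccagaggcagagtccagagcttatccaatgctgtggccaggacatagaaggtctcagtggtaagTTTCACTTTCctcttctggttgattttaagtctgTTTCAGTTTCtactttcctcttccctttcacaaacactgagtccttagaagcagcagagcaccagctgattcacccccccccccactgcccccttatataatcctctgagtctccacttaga
Gbp2: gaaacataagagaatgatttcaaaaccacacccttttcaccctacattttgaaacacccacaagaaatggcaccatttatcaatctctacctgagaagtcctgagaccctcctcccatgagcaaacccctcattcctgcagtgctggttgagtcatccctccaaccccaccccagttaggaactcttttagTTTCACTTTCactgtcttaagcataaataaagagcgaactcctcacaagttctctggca
In Isg15, a ubiquitin-like modifier, the 3 matches overlap each other. Isg15 was undetected in MN1 cells and at least 2.29-fold higher in del DBD cells (adjusted p = 0.00041). Ifit3, an interferon-induced tetratricopeptide gene, was likewise undetected in MN1 cells and at least 2.18-fold higher (adjusted p = 3.31e-05). The promoter of Oasl2 holds 0 matches although the gene rose by 3.22.

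Class I antigen presentation genes had small differences. Of 20 listed genes 17 were measured, with 7 higher, 0 lower (41.2% called, against 37.1% of all genes) and a median of 0.39. The counts were 12 and 0 with all-probe scaling and 5 and 1 with detected-probe scaling. Nlrc5, the transactivator of class I genes, was 2.85-fold higher (adjusted p = 9.35e-05), and Tapbpl, a peptide editor, 2.48-fold (adjusted p = 0.000226). B2m, the class I light chain, rose by 0.63 (adjusted p = 0.00144), a call that ended under scaling to the detected probes (difference 0.11).

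Among inflammatory and NF-kB genes, 30 of 34 were measured, with 15 higher and 4 lower (63.3% called, against 37.1% of all genes). The median was 0.46. Ccl6, a chemokine of myeloid cells, was 10.7-fold higher and detected on 1 of 3 MN1 arrays (adjusted p = 2.19e-06). Il1rn, the IL-1 receptor antagonist, was at least 7.3-fold higher (adjusted p = 3.72e-06), and Socs3, a feedback inhibitor of cytokine signalling, 2.19-fold (adjusted p = 1.41e-05). The 4 that fell were Traf1, an adaptor of TNF receptors (-2.03), Il1a, a cytokine (-1.29), Ccl2, a monocyte chemokine (-1.01), and Nfkb2, an NF-kB subunit (-0.85). Cytokine receptors rose in 12 and fell in 3 of 23 measured cases (65.2% called, against 37.1% of all genes). Their median was 0.67 (0.58 at the bounds). Il1r2, the decoy receptor for IL-1, had 12.12 ± 0.21 in del DBD cells and 7.63 ± 0.32 in MN1 cells (SD, n = 3 each), a 22.5-fold difference (adjusted p = 1.26e-07). Il13ra1 was at least 3.44-fold higher (adjusted p = 4.53e-06). Csf1r, the receptor for M-CSF, was 5.48-fold higher and detected on 1 of 3 MN1 arrays (adjusted p = 4.91e-06). Among 17 measured JAK-STAT genes 6 were higher and 2 lower (47.1% called, against 37.1% of all genes), with 10 and 1 under all-probe and 5 and 3 under detected-probe scaling. Jak2, a kinase of cytokine receptors, rose by 1.43 (adjusted p = 3.11e-05), and Socs2 fell by 0.95 (adjusted p = 0.0018).

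Of 14 measured BCL2 family genes 5 were higher and 1 lower (42.9% called, against 37.1% of all genes), with a median of 0.25, and with 7 and 0 under all-probe and 4 and 3 under detected-probe scaling. The A1 genes Bcl2a1d and Bcl2a1b, near-identical copies of an antiapoptotic gene, were undetected in MN1 cells and at least 18.4-fold (adjusted p = 8.49e-08) and 17.2-fold (adjusted p = 1.5e-07) higher. Mcl1, another antiapoptotic member, rose by 0.57 (adjusted p = 0.00205), a call that ended under scaling to the detected probes (difference 0.28). Of 12 measured eicosanoid genes 7 were higher and 3 lower (83.3% called, against 37.1% of all genes). The counts were 8 and 2 under all-probe and 5 and 3 under detected-probe scaling. Cyp4f18, which degrades leukotriene B4, was 6.52-fold higher with 2 of 3 MN1 arrays detecting it (adjusted p = 2.02e-05), and Alox5ap, needed for leukotriene synthesis, 2-fold (adjusted p = 0.000212). Among 18 measured integrins and adhesion genes 7 were higher and 3 lower (55.6% called, against 37.1% of all genes). The counts were 9 and 1 under all-probe and 6 and 5 under detected-probe scaling. Icam1, a ligand of leukocyte integrins, rose by 1.39 (adjusted p = 0.00019) and Itgae, the integrin chain CD103, fell by 2.81 (adjusted p = 4.36e-06).

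**Figure D3:**
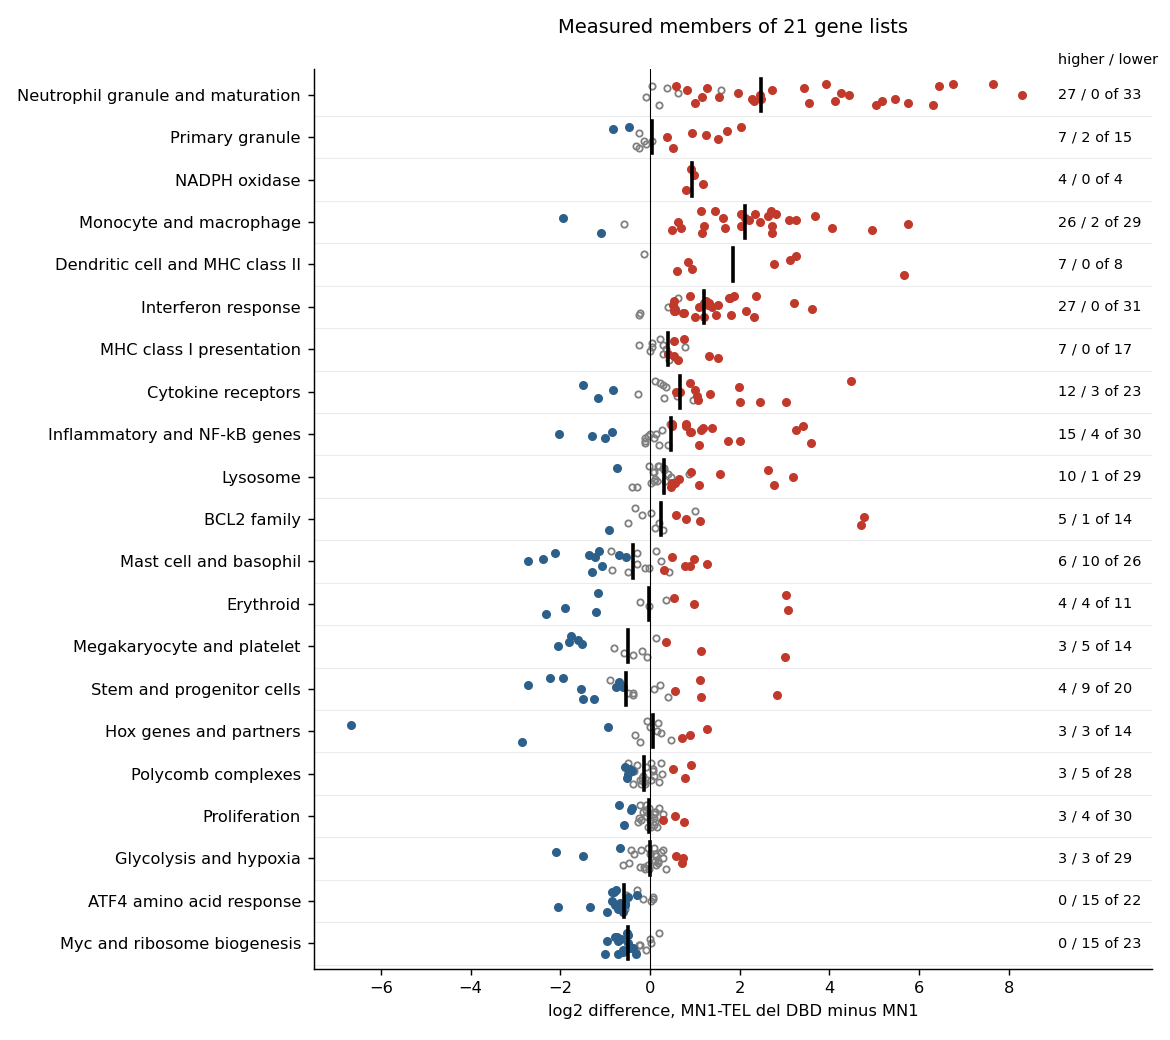
Each dot is a measured gene of the list on the left, with its log2 difference (MN1-TEL del DBD minus MN1) on the x axis; red is called higher, blue called lower, open grey did not pass, and the black bar is the list's median. The right-hand column counts higher, lower and measured genes: 27, 0 and 33 for neutrophil genes, 27, 0 and 31 for interferon genes, and 0, 15 and 22 for the ATF4 list. Lists with medians near 0, such as Polycomb complexes, change sign with the scaling of the arrays.

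The largest falls were of genes from several families. Tfap2c, an AP-2 transcription factor of trophoblast, skin and germ cells, had levels of 4.65, 6.65 and 4.53 in del DBD cells, against 12.50, 12.71 and 12.34 in MN1 cells. It was detected on del DBD array 2 alone, so the fitted 151-fold difference (adjusted p = 3.48e-06) rests in part on signals at background, and its SE was 0.47 on the log2 scale. Cdh3, P-cadherin, had 4.84, 5.12 and 4.55 in del DBD cells, against 11.75, 11.52 and 11.69 in MN1 cells, and was at least 50.1-fold lower (adjusted p = 8.7e-09). The groups are far apart for both genes.

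Hpgd, which breaks down prostaglandins, had 6.22, 7.59 and 5.19 in del DBD cells, against 12.92, 13.02 and 13.10 in MN1 cells. It was detected on 2 of 3 del DBD arrays, and these were spread, but all lay well below MN1 in a 102-fold difference (adjusted p = 5.52e-06). Meis2, a TALE homeobox partner of Hox proteins, had 5.48, 5.55 and 5.44 in del DBD cells, against 12.20, 12.17 and 12.09 in MN1 cells, at least 70.8-fold lower (adjusted p = 9.62e-07). Gria2, a glutamate receptor subunit of neurons, had 6.06, 5.94 and 5.26 in del DBD cells, against 10.70, 11.09 and 11.12 in MN1 cells, 37.2-fold lower with 1 of 3 del DBD arrays detecting it (adjusted p = 1.96e-07). Meis2 and Gria2 are thus near or at background in del DBD cells, while Hpgd is low but detected on 2 arrays. Genes in this ranking were required to have groups that do not overlap.

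Glb1l2, a galactosidase-like gene, had 5.73, 5.17 and 4.88 in del DBD cells, against 10.72, 10.80 and 9.78 in MN1 cells, at least 21.5-fold lower (adjusted p = 1.19e-06). Zfp521, a zinc finger factor of early haematopoietic cells, had 4.84, 5.09 and 5.02 in del DBD cells, against 10.25, 9.94 and 9.97 in MN1 cells, at least 16.5-fold lower (adjusted p = 6.29e-07). Igf2r, the receptor for IGF2 and mannose 6-phosphate, had 5.91, 5.61 and 5.68 in del DBD cells, against 10.94, 10.95 and 10.49 in MN1 cells, at least 27.5-fold lower (adjusted p = 1.43e-07). None of the 3 was detected on any del DBD array. The next falls were in Kcnk2, a potassium channel (at least 17.4-fold), Epha3, an ephrin receptor (at least 21-fold), Nuak1, a kinase (at least 16.5-fold), and Lrp1, an endocytic receptor (at least 20.8-fold), all undetected in del DBD cells. Of the 12 largest falls, Zfp521 and Epha3 were detected on all MN1-TEL arrays, at means of 7.30 and 8.13.

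Stem and progenitor genes fell more often than they rose. Of 30 listed, 20 were measured, with 4 higher and 9 lower (65% called, against 37.1% of all genes). The median was -0.54, and the counts were 6 and 6 with all-probe and 3 and 11 with detected-probe scaling. Kit, the receptor for SCF, had 12.35, 11.95 and 12.19 in del DBD cells, against 13.64, 13.53 and 13.81 in MN1 cells. The groups do not overlap, and Kit was 2.82-fold lower (adjusted p = 0.000657). Cd34, a sialomucin of progenitors, had 10.68, 10.36 and 10.40 in del DBD cells, against 11.04, 11.18 and 11.04 in MN1 cells, and fell by 0.61 (adjusted p = 0.0127). That call ended without MN1 replicate 2 (adjusted p = 0.0528), without del DBD replicate 2 (0.0501), and with arrays scaled to the median of all probes (0.287). Msi2, an RNA-binding protein of stem cells, fell by 1.95 (adjusted p = 4.31e-06), Bcl11a, a zinc finger repressor, by 2.72 (adjusted p = 4.94e-06) and Sox4, an HMG-box factor, by 1.53 (adjusted p = 6.25e-05). The 4 that rose were Nkx2-3 (2.84, adjusted p = 0.000804), Evi2a (1.14), Prom1 (1.12) and Hhex (0.56). The probes for Flt3 were detected on no array.

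Hox genes and their partners did not share a direction. Of 30 listed, 14 were measured, with 3 higher, 3 lower (42.9% called, against 37.1% of all genes) and a median of 0.08 (0.00 at the bounds), and with 7 and 2 under all-probe and 3 and 3 under detected-probe scaling. The 3 that fell were Meis2, Hoxa11 and Pbx4. Hoxa11, a 5′ Hoxa gene, was undetected in del DBD cells and at least 3.1-fold lower (adjusted p = 1.06e-07), and Pbx4 fell by 0.93 (adjusted p = 0.00044). The 3 that rose were Hoxa5 (1.28, adjusted p = 0.000939), Hoxa7 (0.72, adjusted p = 0.0239) and Hoxa2 (0.88, adjusted p = 0.00297), the last undetected on all MN1 arrays and close to background in both groups. Hoxa9, a homeobox gene central to myeloid leukaemia, had 7.97, 8.64 and 8.90 in del DBD cells, against 8.18, 8.53 and 8.25 in MN1 cells. These overlap, and the difference of 0.18 ± 0.21 (SE) did not pass (adjusted p = 0.544). It passed in 1 other setting, all-probe scaling (0.70, adjusted p = 0.0186). Meis1, its cofactor, had 12.98, 12.83 and 12.89 in del DBD cells, against 12.10, 12.39 and 12.81 in MN1 cells, and the difference of 0.47 ± 0.18 (SE) did not pass (adjusted p = 0.0757). It passed in 6 of the other settings, with differences up to 0.97, and another Meis1 probe gave 1.48. The probes for Hoxa10 were detected on no array.

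Bmi1, the Polycomb ring protein in the series title, had 7.96, 8.30 and 7.96 in del DBD cells, against 8.73, 8.44 and 8.48 in MN1 cells. The groups do not overlap, but the difference of -0.48 ± 0.19 (SE) did not pass (adjusted p = 0.0751). It passed in a fit of the 6 arrays alone (adjusted p = 0.0173), with array weights (0.0155) and without MN1-TEL replicate 2 (0.0142), and was 0.05 with arrays scaled to the median of all probes. Cdkn2a, the Ink4a/Arf locus that Bmi1 represses, had 7.58, 5.90 and 6.59 in del DBD cells, against 6.11, 6.09 and 6.15 in MN1 cells, around the limit of detection. Its difference of 0.57 ± 0.57 (SE) did not pass (adjusted p = 0.472). Cdkn2b, the neighbouring Ink4b gene, had 9.92, 9.27 and 9.71 in del DBD cells, against 10.21, 10.28 and 10.22 in MN1 cells, a difference of -0.60 ± 0.26 (SE; adjusted p = 0.101) that passed in 5 of the other settings, including the 6 arrays alone (0.0152). Of 8 measured cell cycle inhibitors 0 passed in either direction in limma (0% called, against 37.1% of all genes). With arrays scaled to the median of all probes 4 were higher.

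**Figure D4:**
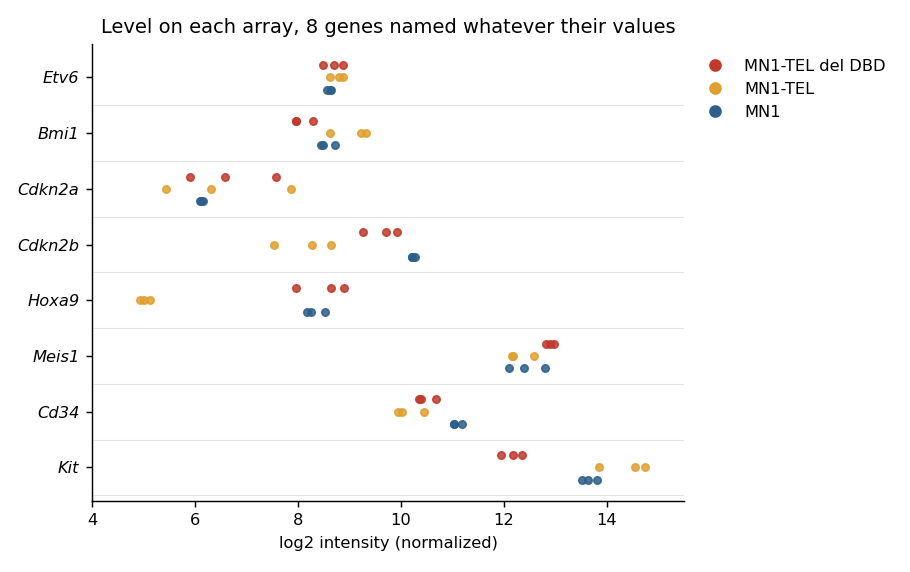
Each dot is 1 array, with its log2 intensity on the x axis, for 8 genes named whatever their values; Mn1, Hoxa10 and Flt3 were not detected on any array and are not drawn. Kit, Cd34, Bmi1, Cdkn2b and Meis1 separate MN1-TEL del DBD (red) from MN1 (blue), as 58.6% of all genes do, while Etv6, Cdkn2a and Hoxa9 overlap. Only Kit and Cd34 passed the test, at differences of -1.50 and -0.61. Hoxa9 is undetected in MN1-TEL (orange).

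Chromatin and transcription factor lists had medians near 0. Of 28 measured Polycomb genes 3 were higher and 5 lower (28.6% called, against 37.1% of all genes), with a median of -0.12. Those higher were the Polycomb members Rybp (0.78) and Cbx7 (0.92), and Asxl1 (0.52). The counts were 9 and 0 with all-probe scaling (median 0.24) and 3 and 10 with detected-probe scaling. The fall of Rnf2, the ubiquitin ligase of the complex (-0.44, adjusted p = 0.012), was 0.04 under all-probe scaling. Of 19 measured MLL and DOT1L complex genes 1 was higher and 3 lower (21.1% called, against 37.1% of all genes), with a median of 0.05. The counts were 11 and 1 with all-probe scaling (median 0.47) and 1 and 3 with detected-probe scaling (median -0.02). Mllt3, a subunit of the elongation complex, fell by 1.30 (adjusted p = 0.000334), and Afdn, an MLL fusion partner that acts at cell junctions, rose by 1.66 with 2 of 3 MN1 arrays detecting it (adjusted p = 0.000779). Of 17 measured TEL corepressors and deacetylases 2 were higher and 2 lower (23.5% called, against 37.1% of all genes). The counts were 5 and 0 under all-probe and 2 and 6 under detected-probe scaling. Tle1, a Groucho corepressor, rose by 0.74 (adjusted p = 0.00136), while Hdac10 fell by 0.81 (adjusted p = 0.0116) and Hdac7 by 0.61 (adjusted p = 0.019), and both falls missed the threshold with arrays scaled to the median of all probes.

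Of 6 measured retinoid genes 1 was higher and 2 lower (50% called, against 37.1% of all genes). The counts were 2 and 1 under all-probe and 1 and 3 under detected-probe scaling. Tgm2, a transglutaminase induced by retinoic acid, was 6.57-fold higher (adjusted p = 3.35e-06), and Aldh1a3, which makes retinoic acid, was undetected in del DBD cells and at least 1.68-fold lower (adjusted p = 0.000751). Of 15 measured ETS family genes 2 were higher and 3 lower (33.3% called, against 37.1% of all genes), with 7 and 1 under all-probe and 2 and 3 under detected-probe scaling. Spi1, which encodes PU.1, rose by 1.01 (adjusted p = 0.00159). Ets1 was 3.19-fold lower with 1 of 3 del DBD arrays detecting it (adjusted p = 0.00031), and Etv4 fell by 0.93 (adjusted p = 0.000983). Of 23 measured myeloid transcription factors 8 were higher and 7 lower (65.2% called, against 37.1% of all genes), with a median of 0.03. The counts were 10 and 4 under all-probe and 6 and 6 under detected-probe scaling. Gfi1b, a repressor of erythroid and megakaryocytic cells, fell by 1.76 (adjusted p = 5.58e-05), and Tcf4, a basic helix-loop-helix factor, by 0.93 (adjusted p = 0.000353).

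Markers of other lineages were present and did not move as a block. Of 26 measured mast cell and basophil genes 6 were higher and 10 lower (61.5% called, against 37.1% of all genes). Their median was -0.39, with 6 and 9 under all-probe and 2 and 14 under detected-probe scaling. The list's mean level was 10.04 to 10.55 on the del DBD arrays, 11.19 to 11.78 on the MN1-TEL arrays and 10.69 to 11 on the MN1 arrays. Fcer1a, the alpha chain of the IgE receptor, was 6.62-fold lower (adjusted p = 0.00343), Ms4a2, its beta chain, 2.59-fold (adjusted p = 0.0055) and Cma2, a chymase with close relatives, 5.26-fold (adjusted p = 0.00439). These had the smallest adjusted p of the list, and the 6 that were higher differed by at most 1.26. Of 14 measured megakaryocyte and platelet genes 3 were higher and 5 lower (57.1% called, against 37.1% of all genes). The counts were 3 and 5 under all-probe and 2 and 6 under detected-probe scaling. Treml1, a platelet receptor, was undetected in del DBD cells and at least 1.98-fold lower (adjusted p = 0.000584), and Vwf, von Willebrand factor, rose by 1.14 (adjusted p = 0.00157).

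Of 11 measured erythroid genes 4 were higher and 4 lower (72.7% called, against 37.1% of all genes). The counts were 5 and 4 under all-probe and 3 and 4 under detected-probe scaling. Hbb-bs, Hbb-bt, Nfe2 and Hemgn were higher and Klf1, Epor, Alas2 and Car2 lower. Hbb-bs and Hbb-bt, adult beta globins that are near-identical, were 8.46-fold (adjusted p = 0.000409) and 8.16-fold (adjusted p = 0.000427) higher, with 14.10, 13.86 and 14.06 for Hbb-bs in del DBD cells, against 10.71, 10.72 and 11.35 in MN1 cells. Alas2, the erythroid haem synthesis enzyme, was undetected in del DBD cells and at least 1.95-fold lower (adjusted p = 0.000169). Slc4a1, the anion exchanger that defines red cells, did not pass the detection filter. Of 2 measured eosinophil genes, Prg2 and Ear6, 0 passed. Of 2 B lymphoid genes Cd79b rose by 1.04 (adjusted p = 0.00141), while Il7r differed by 0.96 (adjusted p = 0.056). Il7r passed in 10 of 21 other settings. Of 5 T and NK genes Thy1 and Gata3 were higher and Lat and Zap70 lower (80% called, against 37.1% of all genes). The defining gene Cd3e did not pass the filter. The part of these lineage markers in the results was not tested.

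Of 5 measured stroma and endothelium genes 4 were higher and 1 lower (100% called, against 37.1% of all genes). Col4a1, a basement membrane collagen, was 12.6-fold lower (adjusted p = 1.49e-05), whereas Col4a2, its partner chain, was 4.14-fold higher with 1 of 3 MN1 arrays detecting it (adjusted p = 0.000667). Acta2, smooth muscle actin, was 9.72-fold higher with 1 of 3 MN1 arrays detecting it (adjusted p = 8.24e-06). Its other probes did not share a direction, at 2.00 and -0.27. Col1a1, Col3a1 and Cdh5 did not pass the filter. Of 9 measured epithelial genes 3 were higher and 2 lower (55.6% called, against 37.1% of all genes). Cdh1, E-cadherin, was 6.33-fold higher (adjusted p = 1.45e-06), opposite to Cdh3 and Tfap2c.

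Genes of the ATF4 amino acid response fell in 15 of 22 measured cases, with 0 higher (68.2% called, against 37.1% of all genes). Their median was -0.58. The median kept its sign at -0.39 and -0.89 under the other scalings, with 10 and 18 lower. Bcat1, a branched-chain aminotransferase, was 4.16-fold lower (adjusted p = 9.55e-06), Shmt2, the mitochondrial serine hydroxymethyltransferase, 2.54-fold (adjusted p = 0.000202) and Wars, a tRNA synthetase, 1.6-fold (adjusted p = 0.000502). Myc and ribosome biogenesis genes fell in 15 of 23 measured cases, with 0 higher (65.2% called, against 37.1% of all genes). Their median was -0.48, but 2 were higher and 4 lower with all-probe scaling and 0 and 18 with detected-probe scaling. Tcof1, a nucleolar protein, fell by 1.01 (adjusted p = 3.63e-05), Polr1a, the large subunit of RNA polymerase I, by 0.71 (adjusted p = 0.000512) and Nop2, a methyltransferase of ribosomal RNA, by 0.73 (adjusted p = 0.00152).

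Glycolysis and hypoxia genes did not move as a group. Of 29 measured, 3 were higher and 3 lower (20.7% called, against 37.1% of all genes), with a median of -0.01. The counts were 7 and 2 under all-probe and 2 and 12 under detected-probe scaling. Eno2, an enolase, was undetected in del DBD cells and at least 2.88-fold lower (adjusted p = 0.000106), Slc2a3, a glucose transporter, 2.83-fold lower (adjusted p = 0.000236), and Aldoc, an aldolase, 1.65-fold higher (adjusted p = 0.00123). Of 30 measured proliferation genes 3 were higher and 4 lower (23.3% called, against 37.1% of all genes), with a median of -0.03. The counts were 9 and 0 under all-probe and 2 and 10 under detected-probe scaling. Rrm2, of ribonucleotide reductase, fell by 0.69 (adjusted p = 0.00465), and Ccne1, cyclin E1, rose by 0.75 (adjusted p = 0.0047). Of 17 measured cholesterol synthesis genes 6 were higher and 1 lower (41.2% called, against 37.1% of all genes), with 12 and 0 under all-probe and 2 and 4 under detected-probe scaling. Of 10 measured heat shock genes 1 was higher and 4 lower (50% called, against 37.1% of all genes), with 1 and 0 under all-probe and 0 and 7 under detected-probe scaling. Of 22 measured glutathione and NRF2 genes 3 were higher and 6 lower (40.9% called, against 37.1% of all genes), with 5 and 1 under all-probe and 2 and 8 under detected-probe scaling. Gstt1, a glutathione transferase, was at least 4.21-fold lower (adjusted p = 1.2e-06), opposite to Mgst1, and Mgst2 was 2.6-fold higher (adjusted p = 0.000108). Of 16 measured ER chaperone genes 2 were higher and 0 lower (12.5% called, against 37.1% of all genes), with a median of 0.05. The counts were 5 and 0 under all-probe and 0 and 2 under detected-probe scaling. Of 18 measured p53 targets 2 were higher and 2 lower (22.2% called, against 37.1% of all genes), with 6 and 0 under all-probe and 2 and 4 under detected-probe scaling. Fas, a death receptor, rose by 1.69 (adjusted p = 5.32e-06) and Trp53inp1 by 1.15 (adjusted p = 0.000189). Polk, 1 of the 2 that fell, differed by -0.40 (adjusted p = 0.042) and by 0.07 under all-probe scaling.

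A direct comparison of del DBD with MN1-TEL cells gives the differences between the deletion construct and the full fusion. It shares the del DBD arrays with the comparison above, so the values are set side by side. Of 9136 genes 2689 (29.4%) passed, 1373 (15%) higher and 1316 (14.4%) lower in del DBD cells, with 51.1% of called genes higher. With arrays scaled to the median of all probes 39.1% were higher (1030 higher and 1606 lower). At least 2-fold changes were found in 847 genes (9.27%). Glycolysis and hypoxia genes were higher in del DBD than in MN1-TEL cells in 24 of 29 cases, with 0 lower and a median of 1.12, whereas against MN1 their median was -0.01. Egln3, an oxygen-sensing hydroxylase, had a level of 13.30 ± 0.07 in del DBD cells, 10.62 ± 0.35 in MN1-TEL cells and 13.54 ± 0.03 in MN1 cells (SD, n = 3 each). ATF4 genes were higher than in MN1-TEL cells in 12 of 22 cases, with 0 lower, whereas 0 were higher and 15 lower than in MN1 cells. Hox genes and partners were higher in 7 of 14 cases, with 0 lower. Under the other scalings these 3 lists had 24, 7 to 10 and 6 genes higher, and 0 lower.

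The rises against MN1-TEL were led by Arg1, arginase 1, with levels of 12.32, 11.23 and 11.69 in del DBD cells and a mean of 5.0 in MN1-TEL cells, where it was undetected, and of 9.70 in MN1 cells. It was at least 51.5-fold higher than in MN1-TEL cells (adjusted p = 3.16e-06) and 4.12-fold higher than in MN1 cells (adjusted p = 0.000921). Mgarp, a mitochondrial protein regulated by hypoxia, was 89.6-fold higher than in MN1-TEL cells, where 1 of 3 arrays detected it (adjusted p = 3.16e-06), and differed by 0.07 from MN1 cells (adjusted p = 0.885). Bcat1, Hif3a, a hypoxia-inducible factor subunit, and C2cd4a were undetected in MN1-TEL cells and at least 11.6-fold, 11.6-fold and 10.3-fold higher. Cox6a2, a respiratory chain subunit, was 20-fold higher and detected on 1 of 3 MN1-TEL arrays. Stc2, a secreted glycoprotein, was 19.8-fold and Hoxa5 17.3-fold higher, each detected on 2 of 3 MN1-TEL arrays. Folds against a partly undetected group rest on signals near background. Hoxa9 was undetected on all MN1-TEL arrays and at least 5.44-fold higher in del DBD cells (adjusted p = 9.29e-06).

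The falls against MN1-TEL were led by Aldh3a1, an aldehyde dehydrogenase, at least 26.1-fold lower (adjusted p = 5.62e-06), and by Fosb, an AP-1 subunit, at least 25.6-fold lower (adjusted p = 8.05e-06). Both were undetected in del DBD cells and were at least 2.37-fold (adjusted p = 0.00107) and 2.28-fold (adjusted p = 0.00246) lower than in MN1 cells too. Immediate early genes were lower in 13 and higher in 1 of 17 measured cases, with a median of -1.18, whereas 5 were higher and 3 lower than in MN1 cells. Fos had a level of 10.10 ± 0.28 in del DBD cells, 13.41 ± 0.28 in MN1-TEL cells and 9.88 ± 0.23 in MN1 cells (SD, n = 3 each). Mast cell genes were lower in 14 and higher in 3 of 26 cases, with Cma2 17.2-fold and Mcpt4, another mast cell protease, 16.1-fold lower. The other large falls were Hs6st2, a heparan sulfate sulfotransferase (23.3-fold), Cx3cr1, the fractalkine receptor (19.5-fold), Lhfp (17.8-fold) and B4galnt2, a glycosyltransferase (at least 6.62-fold). Kit was 4.69-fold lower than in MN1-TEL cells (adjusted p = 9.94e-05).

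**Figure D5:**
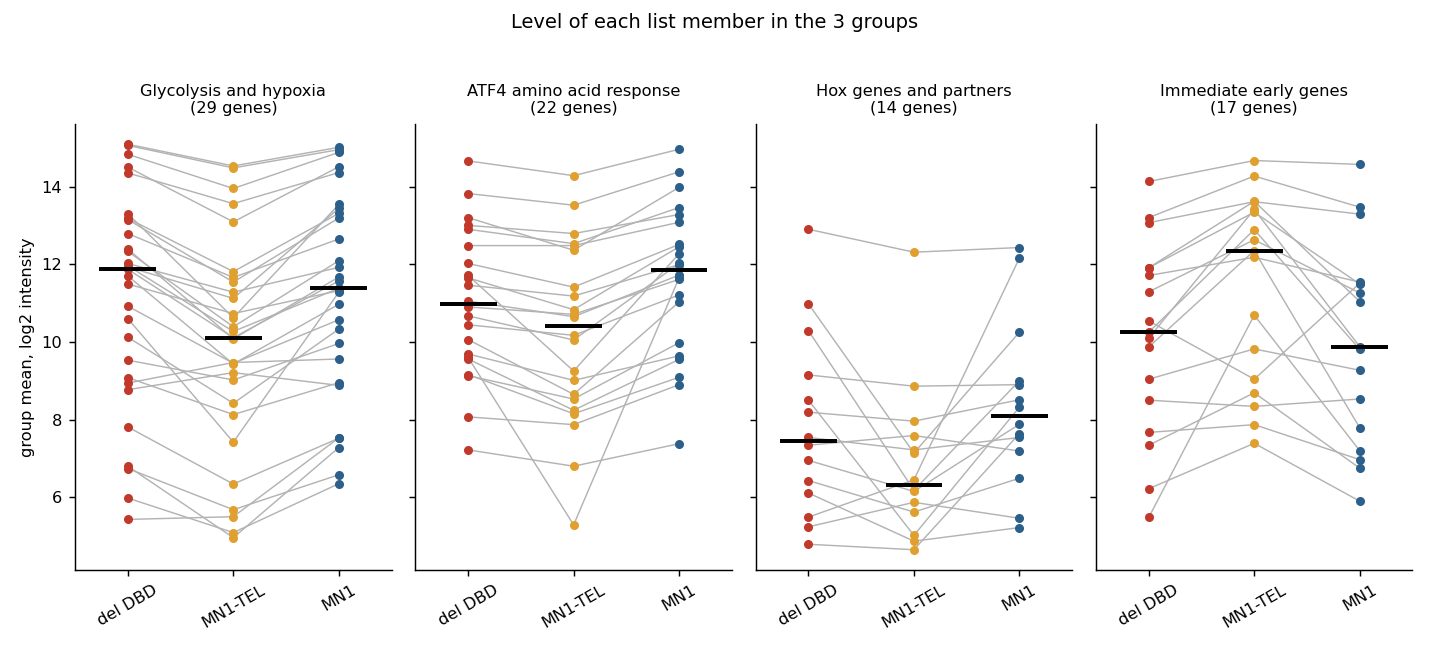
Each line is a measured gene, with its mean log2 intensity (y axis) in MN1-TEL del DBD, MN1-TEL and MN1 cells, 3 arrays each, and black bars mark the median over the genes of a list. The median of glycolysis and hypoxia genes is lowest in MN1-TEL (24 of 29 higher in MN1-TEL del DBD than in MN1-TEL, 3 of 29 higher than in MN1), and that of immediate early genes is highest in MN1-TEL (13 of 17 lower in MN1-TEL del DBD).

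Some members of the neutrophil, monocyte and lysosome lists, in which rises outnumbered falls against MN1, were lower than with the full fusion. The counts below cover all measured members, including some that did not pass as higher against MN1, such as Mmp9 and Cx3cr1. Neutrophil genes were lower than in MN1-TEL cells in 12 and higher in 5 of 33 cases, monocyte genes lower in 12 and higher in 4 of 29, and lysosome genes lower in 15 and higher in 1 of 29. Ltf was 2.36-fold lower than in MN1-TEL cells (adjusted p = 0.00483), Cd177 2.24-fold (adjusted p = 0.00194) and Lyz2 2.61-fold (adjusted p = 0.000655). Chil4 went the other way and was 10.5-fold higher than in MN1-TEL cells (adjusted p = 1.13e-05), as was Elane, 7.18-fold (adjusted p = 3.42e-05). Lower calls outnumbered higher ones in these 3 lists under both other scalings too. Interferon genes were higher in 8 and lower in 2 of 31 cases, and class I genes higher in 8 and lower in 0 of 17, where 29.4% of all genes were called. With all-probe scaling the interferon counts were 4 and 2, and the class I counts 6 and 0. With detected-probe scaling they were 6 and 2 for interferon genes and 7 and 0 for class I genes.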

How the data were processed

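RNA of the 9 samples was hybridised to Illumina mouse BeadChips. The authors deposited probe intensities that were not normalized and a detection p-value for each probe and array, per the file headers. GenomeStudio 2010.3 is named in the submitters' processing notes. The 45281 probes were paired with genes through the platform annotation, and 34885 had 1 symbol. From the deposited intensities, log2 values were computed with neqc in limma 3.58.1 (R 4.3.3), with negative controls inferred from the detection p-values, quantile normalization and an offset of 16. The authors' own normalized intensities served as an alternative. A probe was kept if 3 or more arrays detected it (p-value below 0.01). Of several kept probes for a gene, the brightest on average was used, which left 9136 genes. In 1 limma model over 3 groups of 3 arrays, with 6 residual degrees of freedom, moderated tests were adjusted over all genes by Benjamini-Hochberg at 0.05. Every adjusted p in the text is limma's.

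The comparison, its gene lists and named genes were chosen with earlier results of these data known. Named by rule were the 12 largest rises and falls among called genes whose groups do not overlap, up to 3 genes per list with the smallest adjusted p, the 8 largest differences each way against MN1-TEL, and 11 genes whatever their values. Genes named beyond that were picked after their values were seen. Replicate numbers were not used to pair the arrays, and the labels do not say what a shared number means. Deviations of same-numbered del DBD and MN1 arrays correlated at 0.04, 0.02 and -0.00. With 3 arrays per group these values cannot settle whether arrays were paired. The limma step was tested on simulated data. Alternatives were other scalings, background corrections, filters, probe summaries, priors, weights, a replicate block and leaving out each array.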

Additional observations from a re-analysis of the deposited data

How the results depend on the processing

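The count of genes called between del DBD and MN1 cells was 3386 and ranged from 2293 without MN1 replicate 1 to 4656 with array weights. Leaving out 1 array gave 2293 to 4209 calls, and 1009 to 1142 at 2-fold or more. The count at 2-fold or more, 1130, was 606 without background correction and 572 among the 7570 genes detected on all 9 arrays, where fewer genes were tested. With a replicate block 3097 genes were called, and the labels do not say whether shared numbers pair the arrays. Over 154 named genes 3019 of 3128 values kept direction and call, 57 lost the call, 37 gained it and 15 changed sign. Against MN1-TEL, 1575 of 1732 values kept both, 157 lost the call and 0 changed sign. Values that changed sign when arrays were scaled to the median of all probes were Bmi1 (0.05), Dnajc3 (0.23), Polk (0.07), Prg2 (0.15), Rnf2 (0.04) and, beyond the spread between replicates, the medians of the epithelial (0.22), Polycomb (0.24), ETS (0.31) and glutathione (0.27) lists. Under scaling to the detected probes these were B4galnt2 (-0.39), Ear6 (-0.47), Mgarp (-0.22), Xbp1 (-0.02) and the MLL list (-0.02). Other list medians changed sign but lay within that spread of 0 in at least 1 of the settings. With all-probe scaling these were the eosinophil (0.09), erythroid (0.20), corepressor (0.31), retinoid (0.10), proliferation (0.26) and glycolysis (0.12) medians. With detected-probe scaling they were the primary granule (-0.25), myeloid transcription factor (-0.21), immediate early (-0.01), p53 (-0.13) and ER chaperone (-0.17) medians. With genes detected on all 9 arrays the epithelial median was 1.26 and the ETS median 0.14. Hoxa9 was -0.00 in a fit of the 6 arrays, and Rbl1 -0.21 as the mean of its probes. Leaving out 1 array gave Etv6 -0.02 to 0.18, Hoxa9 -0.02 to 0.45, Mgarp -0.05 to 0.17 and the T and NK median -0.77 to 0.32. The cause of these changes was not tested beyond the settings themselves.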
